A study of Mus musculus with 27 samples.

Results

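The 45 genes described here encode enzymes that add methyl groups to lysines of the histones, or that take them off. They are 30 methyltransferases and 15 demethylases of 39338 rows in the table of counts. They were chosen by symbol, after earlier results of these data were known: Kmt2d was among the strongest differences between genotypes in the mice injected with the non-targeting crRNA (NTG). All 45 were among the 21768 genes that passed the filter on low counts.

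The study asked whether RfxCas13d-N2V8, a high-fidelity form of the RNA-cutting enzyme RfxCas13d, corrected expression in the motor cortex of mice that carry the human C9ORF72 gene with an expanded repeat. RNA was sequenced from 27 libraries of nuclei sorted for EGFP-KASH, a green fluorescent protein held at the nuclear envelope, and every mouse of all 6 groups received the PHP.eB vector for this protein. The mice were injected at 6 weeks of age and their nuclei were taken 2 months later. In C9-BACexp mice, which carry a bacterial artificial chromosome with the human gene, EGFP-KASH only was given to 3 mice, RfxCas13d-N2V8 with NTG to 6 and RfxCas13d-N2V8 with crRNA-13, which targets the repeat-containing RNA, to 6. In C57BL/6J littermates without the human gene the numbers were 4, 5 and 3. The CAG promoter of the reporter is active in most cell types, but in the study's staining the reporter lay mostly in neurons and was sparse in astrocytes and microglia. The RNA is nuclear. Each library is an independent biological replicate by the study's design text.

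Methylated lysines mark the state of chromatin. Methylation of H3K4 is found at active promoters and enhancers, of H3K36 and H3K79 along transcribed genes, and of H3K9, H3K27 and, as trimethylation, H4K20 in silent chromatin. The methyltransferases described here use a SET domain or a relative of it, with Dot1l as the exception, and the demethylases use either a flavin (the LSD enzymes) or iron (the JmjC enzymes). Several of these genes, among them KMT2D and EHMT1, cause neurodevelopmental disorders in people when a copy is lost.

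RefSeq promoters were found for 31 of the 45 genes, 43 promoters in all. The 250 bases before the start of transcription are given for 4 genes on which the results turn. These are Kmt2d and Kmt2a, whose levels moved together from library to library, and Kdm4a and Kdm7a. In the fit with factors of unwanted variation Kdm4a was called higher in C9-BACexp mice, while following Kmt2d only loosely, and Kdm7a was called lower. Neither was called without those factors. Capitals mark each GC box (GGGCGG on either strand, overlapping matches joined), the coordinates are those of GRCm38.p6, and the letters run 5′ to 3′ on the strand of the gene, which is the minus strand for all 4.
Kmt2d, chr15:98871206-98871455: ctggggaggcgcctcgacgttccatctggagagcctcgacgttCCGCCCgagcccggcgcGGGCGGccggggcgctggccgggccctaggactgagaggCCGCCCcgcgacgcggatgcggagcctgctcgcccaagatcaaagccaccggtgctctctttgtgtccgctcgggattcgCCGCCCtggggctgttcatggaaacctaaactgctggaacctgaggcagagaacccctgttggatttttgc
Kmt2a, chr9:44881290-44881539: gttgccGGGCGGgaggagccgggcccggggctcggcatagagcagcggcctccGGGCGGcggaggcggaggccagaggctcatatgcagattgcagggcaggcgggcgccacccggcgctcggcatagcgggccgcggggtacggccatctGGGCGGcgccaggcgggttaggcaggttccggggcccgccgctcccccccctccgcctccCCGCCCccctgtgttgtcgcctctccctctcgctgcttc
Kdm4a, chr4:118180044-118180293: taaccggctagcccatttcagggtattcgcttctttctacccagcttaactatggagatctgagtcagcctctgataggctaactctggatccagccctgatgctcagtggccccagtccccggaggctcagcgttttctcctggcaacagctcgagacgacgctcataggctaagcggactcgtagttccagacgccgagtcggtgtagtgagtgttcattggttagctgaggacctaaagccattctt
Kdm7a, chr6:39206774-39207023: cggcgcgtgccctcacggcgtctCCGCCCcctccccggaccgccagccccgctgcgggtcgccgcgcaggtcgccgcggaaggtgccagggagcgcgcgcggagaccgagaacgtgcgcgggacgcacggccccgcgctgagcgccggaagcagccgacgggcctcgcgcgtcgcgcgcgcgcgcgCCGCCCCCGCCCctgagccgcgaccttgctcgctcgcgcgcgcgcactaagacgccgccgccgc

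The promoters of Kmt2d and Kmt2a each held 4 GC boxes and that of Kdm7a held 3, while the window of Kdm4a held none and had the lowest GC content of the 4, 53.6% against 67.6%, 76.8% and 82.0%. A GC box was found in 29 of the 43 promoters of these genes (67.4%) and in 10756 of all 32851 promoters of the same length (32.7%). The CCAAT box (CCAAT, either strand) was found in 14 of 43 (32.6%) and in 33.8% of all. TATAAA was found in none of the 43 and in 12.4% of all, and TGACGTCA in 1 of 43 (2.33%) and 1.55% of all. The median GC content of these promoters was 67.2%, against 52.4% over all promoters. These are counts of letters in a window and not of bound factors.

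On the first factor of variation shared by genes within groups, 4 libraries stood farthest from 0, namely replicate 1 of the C9-BACexp mice given crRNA-13, replicate 2 of the C57BL/6J mice given EGFP-KASH only, and replicates 3 and 5 of the C57BL/6J mice given NTG. Library totals ranged from 21508829 to 36777972 counts. Markers of oligodendrocytes, the myelin-forming cells, were read in every group: none of the 9 was at 0 in all libraries, and their summed level ranged from 324 to 3882 CPM (counts scaled to the size of the library). In these pooled nuclei fewer cells of a type and less RNA per cell cannot be told apart. Kdm5d, a Y-linked demethylase that is not among the 45, was above 10 CPM in 11 libraries and at most 1 CPM in 16, and the labels give no sex.

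All 45 genes were read in every library. In CPM averaged over the 27 libraries, the highest were Smyd3, a SET-domain methyltransferase, at 574, Kmt2a at 480, Kmt2d at 363 and Jmjd1c, a JmjC protein, at 289. The lowest were Suv39h2 at 2.29, Setdb2 at 2.70, Suv39h1 at 7.22 and Ezh2 at 16.4. The first 3 of these methylate H3K9 and Ezh2 is the catalytic subunit of PRC2, the H3K27 methyltransferase. Ezh1, the other catalytic subunit of PRC2, was at 44.3 CPM. Divided by exon length, the order of the levels was Smyd3 at 41.4 CPM per kb, Kmt2a at 28.7, Dot1l, the H3K79 methyltransferase, at 19.5, Kmt2d at 18.2 and Ehmt1, an H3K9 methyltransferase, at 16.1. The 3 H3K9 enzymes Setdb2, Suv39h1 and Suv39h2 were at 0.450, 1.33 and 0.227 CPM per kb. The counts include unspliced transcripts, and divided by the length of the whole gene the order was another: Kmt2d came first at 9.19 CPM per kb, followed by Kmt2a at 6.15, Kmt2b at 5.09, Ehmt2 at 4.82 and Dot1l at 4.47. Smyd3, which was first per exon length, was at 1.01 CPM per kb of the gene and at rank 35 of 45.

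**Figure D1:**
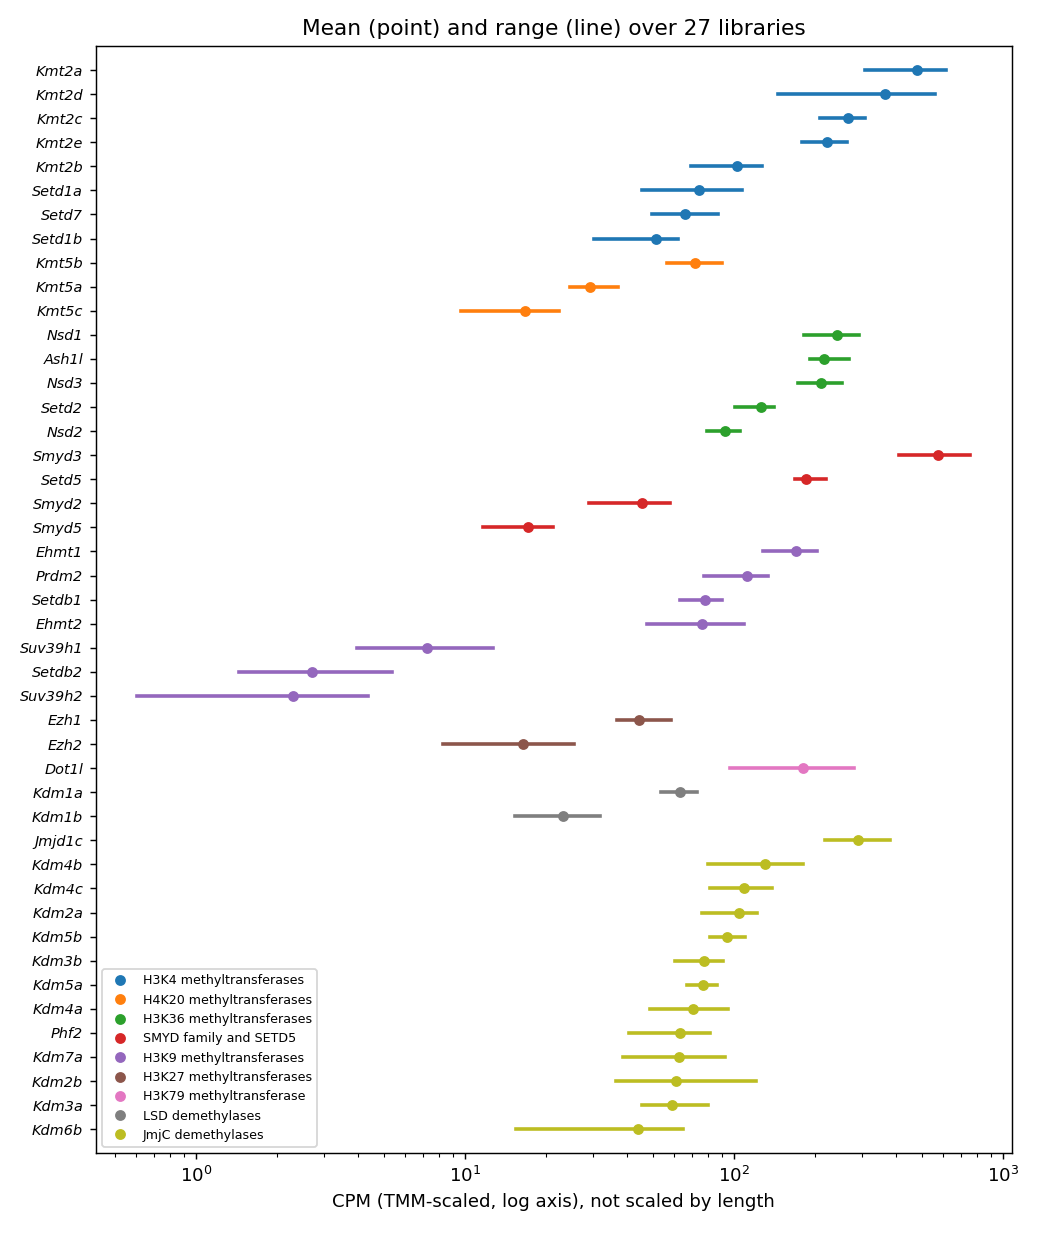
The mean level of each of the 45 genes over 27 libraries (point) and its lowest and highest library (line) in CPM on a log axis, coloured by role. Smyd3, Kmt2a and Kmt2d stand at the top, and Suv39h2, Setdb2 and Suv39h1 at the bottom.

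The genes differed in how far they varied. Leaving aside the 4 genes with the lowest levels, the highest library was 4.19 times the lowest for Kdm6b, an H3K27 demethylase, 3.84 times for Kmt2d, 3.32 times for Kdm2b and 2.90 times for Dot1l. Kdm5a, an H3K4 demethylase, and Setd5 varied by 1.3 times and Nsd2, an H3K36 methyltransferase, by 1.32 times. The spread of Kmt2d lay largely inside the groups, most of all inside the C57BL/6J groups given EGFP-KASH only and NTG.

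Kmt2d encodes the methyltransferase (MLL4) that places H3K4 monomethylation at enhancers. On GRCm39 it lies on the minus strand at chr15:98729550-98769085. In C57BL/6J mice given EGFP-KASH only its levels were 561, 397, 169 and 191 CPM in replicates 2, 3, 4 and 5, and in C9-BACexp mice 401, 367 and 376 CPM in replicates 2, 3 and 5. With crRNA-13 they were 412, 336 and 238 CPM in C57BL/6J mice, and in C9-BACexp mice 277 at the lowest, 397 at the median and 494 at the highest. The genotypes overlapped with both treatments: the 3 C9-BACexp libraries with EGFP-KASH only lay close together, inside the wide range of the C57BL/6J libraries.

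**Figure D2:**
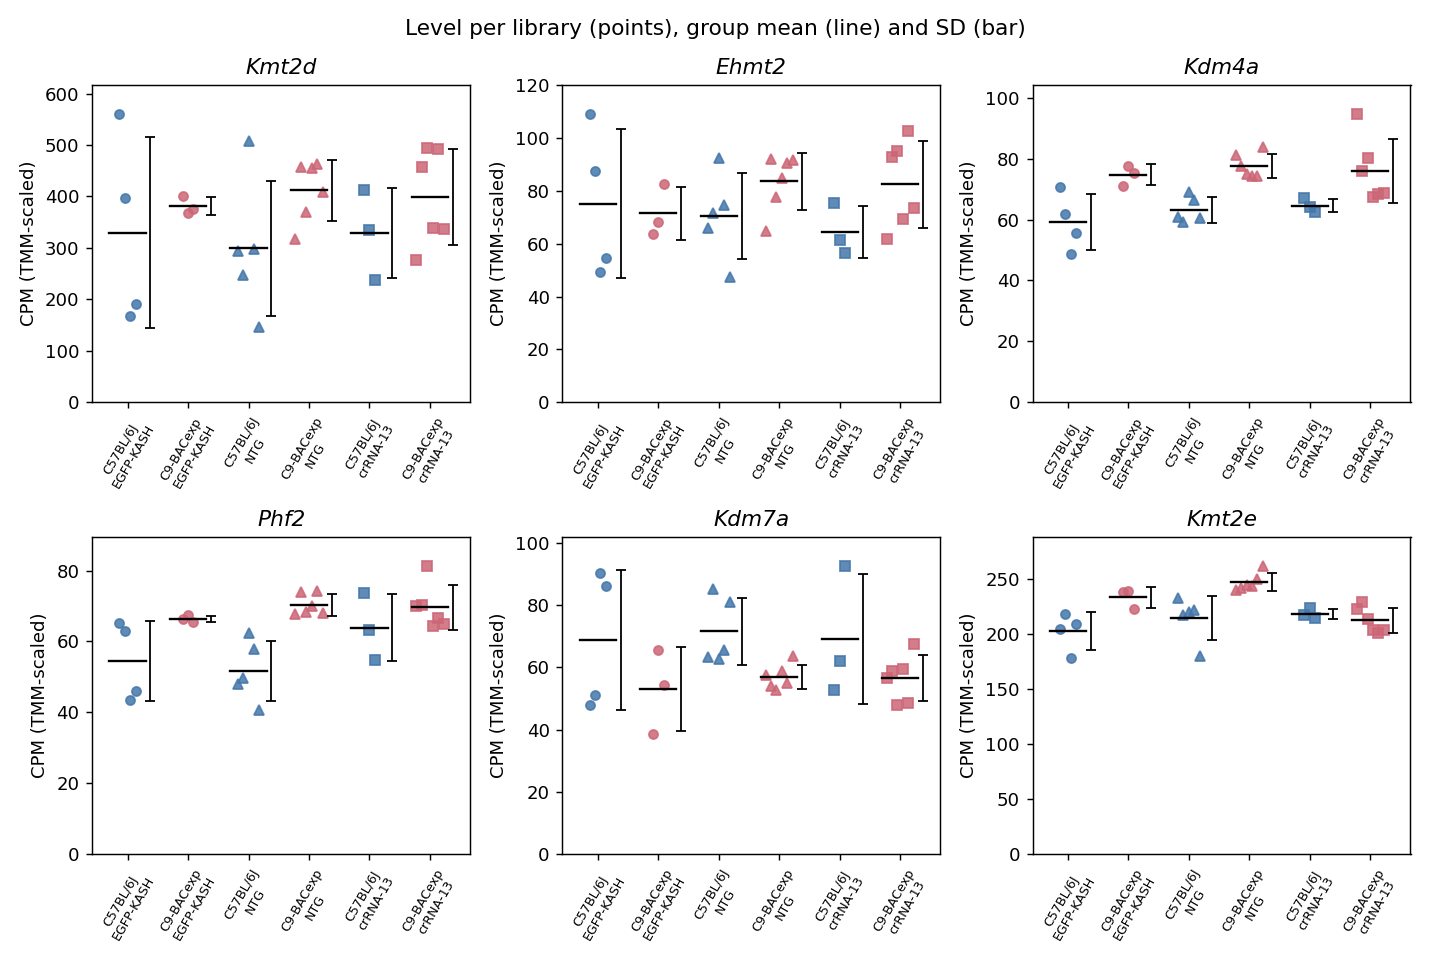
Levels of Kmt2d, Ehmt2, Kdm4a, Phf2, Kdm7a and Kmt2e in CPM in each of the 27 libraries, by genotype and treatment, with the mean (line) and SD (bar) of each group. The C57BL/6J libraries of Kmt2d spread from 146 to 561 CPM, and for Kdm4a the 2 genotypes do not overlap within any treatment.

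The genotypes were compared in the 16 libraries outside the NTG contrast in which Kmt2d stood out, with edgeR's quasi-likelihood test in a model of all 6 groups. The model held 4 factors of unwanted variation, taken from the residuals within groups. A gene was called when it changed over 1.2-fold at an adjusted p under 0.05. Factors and spread were estimated from all 27 libraries, those with NTG included. Within groups Kmt2d had a Pearson r of −0.959 with the first factor. Its SE with the factors therefore leaves out much of its variation between mice. With these factors Kmt2d was higher in C9-BACexp mice by 0.40 (log2, SE 0.07, adjusted p = 0.00213) with EGFP-KASH only, by 0.27 (SE 0.06, adjusted p = 0.0208) with crRNA-13 and by 0.33 (SE 0.05, adjusted p = 0.000402) over both. Without the factors the differences were of similar or smaller size, 0.21 (SE 0.34), 0.28 (SE 0.32) and 0.25 (SE 0.23), and none was called, at adjusted p = 0.945, 0.913 and 0.792. An exact two-sided permutation test of log2 CPM gave p = 0.321 for crRNA-13, where 0.0119 is the smallest of 84 splits, p = 0.40 for EGFP-KASH only, where 0.0286 is the smallest of 35, and p = 0.236 stratified over both, all 0.4 when adjusted over these 3 tests. The difference in Kmt2d was not called in the fit without factors, where it was smaller than the spread between mice. With 2 factors in place of 4 it was called over both treatments (0.34, adjusted p = 0.0282) and not with crRNA-13 (0.27, adjusted p = 0.186) or with EGFP-KASH only (0.40, adjusted p = 0.0558). A single library moved it: it was 0.14 without replicate 4 and 0.70 without replicate 2 of the C57BL/6J mice given EGFP-KASH only, and, with crRNA-13, 0.05 without replicate 5 and 0.46 without replicate 1 of the C57BL/6J mice. The call with EGFP-KASH only was lost without replicate 4 or 5 (0.20) of that C57BL/6J group. The call with crRNA-13 was lost without replicate 5 of the C57BL/6J mice or replicates 2, 3 or 6 of the C9-BACexp mice (0.22, 0.20 and 0.20). The call over both was lost without replicate 4 or 5 of the C57BL/6J mice given EGFP-KASH only (0.21 and 0.23) or replicate 5 of those with crRNA-13 (0.23).

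Of the 45 genes, 2 were called with crRNA-13, both higher in C9-BACexp mice (4.44%), where 1.08% of all genes tested were called, 0.441% higher and 0.639% lower. With EGFP-KASH only 4 were called, 3 higher and 1 lower (8.89%), against 2.86% of all genes, 1.59% higher and 1.27% lower. Over both treatments 3 were called, 2 higher and 1 lower (6.67%), against 3.22%, 1.84% higher and 1.39% lower. In the fit without factors edgeR called none of the 45 in any of these comparisons, and the smallest adjusted p among them was 0.637, 0.459 and 0.342. The share of all genes called without factors is not given here, so this absence of calls cannot be read as below a background. At an unadjusted p under 0.05 in the fit with factors there were 7 genes with crRNA-13, 19 with EGFP-KASH only and 16 over both (12.5%, 19% and 19.5% of all genes). The median log2 difference of the 45 was 0.06, 0.12 and 0.09, against −0.00, −0.03 and −0.03 over all genes tested.

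Of the 8 H3K4 methyltransferases, Kmt2d was the one called in these comparisons. Its relatives had smaller differences with the factors: over both treatments Setd1a, the catalytic subunit of a SET1 complex that trimethylates H3K4, had 0.21 (adjusted p = 0.0115), which missed the fold limit, and Setd1b 0.19 (adjusted p = 0.111). Kmt2a and Kmt2b, which act at promoters, had 0.11 (adjusted p = 0.113) and 0.15 (adjusted p = 0.117), and Kmt2c, the enhancer enzyme most like Kmt2d, had 0.09 (adjusted p = 0.138). Kmt2c ranged from 210 to 306 CPM over all libraries, a far narrower range than that of Kmt2d. Kmt2e, an MLL-family protein for which no strong methyltransferase activity is known, was at 205, 218, 179 and 209 CPM in C57BL/6J and at 238, 239 and 223 CPM in C9-BACexp mice given EGFP-KASH only. These 2 groups did not overlap, and the difference of 0.20 was not called (adjusted p = 0.147). With crRNA-13 Kmt2e showed no such separation, with 217, 223 and 215 CPM against a median of 209 CPM.

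Ehmt2 (G9a) and Ehmt1 (GLP) form the complex that mono- and dimethylates H3K9 in euchromatin. With crRNA-13 Ehmt2 was at 75.2, 61.4 and 56.5 CPM in C57BL/6J mice and between 61.6 and 103 CPM (median 83.1) in C9-BACexp mice, and the groups overlapped. With the factors it was higher by 0.34 (SE 0.07, adjusted p = 0.00819), and without them by 0.36 (SE 0.22, adjusted p = 0.762). The call was lost without replicate 5 of the C57BL/6J mice given crRNA-13 (0.25). With EGFP-KASH only, where its levels were 109.2, 87.4, 49.2 and 54.7 CPM against 63.5, 68.4 and 82.6 CPM, its difference was 0.01. Ehmt1 had the larger difference there, 0.25 (adjusted p = 0.0223, under the fold limit), and 0.09 with crRNA-13. No other H3K9 methyltransferase was called. Setdb1, which trimethylates H3K9 at silenced repeats, differed by −0.04 with crRNA-13 and 0.11 with EGFP-KASH only, and Suv39h2, read at a few CPM, by −0.02 and −0.51.

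None of the H3K36, H4K20, H3K27 and H3K79 methyltransferases was called. Dot1l, the H3K79 methyltransferase, and Nsd1, which dimethylates H3K36, both had 0.23 with crRNA-13 (adjusted p = 0.0214 and 0.0298) and missed the fold limit. Without the factors the adjusted p was 0.894 for Dot1l and 0.694 for Nsd1. Kmt5b, an H4K20 methyltransferase, did not overlap between genotypes with EGFP-KASH only, at 64.0, 64.9, 75.2 and 67.1 CPM against 75.3, 90.1 and 81.7 CPM, with a difference of 0.28 (adjusted p = 0.193). Its values of 75.2 and 75.3 CPM all but met. Ezh2 and Ezh1 differed by 0.10 and 0.00 with EGFP-KASH only and by −0.02 and 0.06 with crRNA-13. Of the 3 Smyd genes and Setd5 none was called, and Smyd3, the gene with the highest level, differed by 0.30 (adjusted p = 0.27) and 0.09.

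Among the demethylases, Kdm4a separated the genotypes most cleanly. It encodes a JmjC enzyme that removes methyl groups from H3K9 and H3K36, and lies on the minus strand at chr4:117994154-118037251 (GRCm39). With EGFP-KASH only it was at 70.8, 61.7, 48.8 and 55.6 CPM in C57BL/6J and at 71.2, 77.7 and 75.4 CPM in C9-BACexp mice. With crRNA-13 it was at 66.9, 64.1 and 62.6 CPM in C57BL/6J mice and between 67.3 and 94.7 CPM (median 72.4) in C9-BACexp mice. In both treatments the lowest C9-BACexp library lay just above the highest C57BL/6J library, with gaps of less than 1 CPM. With the factors the difference was 0.35 (SE 0.07, adjusted p = 0.0115) with EGFP-KASH only, 0.22 (SE 0.07, adjusted p = 0.0937) with crRNA-13 and 0.29 (SE 0.05, adjusted p = 0.00346) over both. Without the factors Kdm4a kept its size, 0.34 with EGFP-KASH only (SE 0.12, adjusted p = 0.459) and 0.29 over both (SE 0.08, adjusted p = 0.342), but was not called. Its SE grew far less than that of Kmt2d. The call with EGFP-KASH only was lost without replicate 4 of the C57BL/6J mice (0.26), and that over both without the same library (0.24) or without replicate 1 of the C9-BACexp mice given crRNA-13 (0.25).

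Phf2, a JmjC demethylase of H3K9, was at 65.2, 63.0, 43.5 and 45.9 CPM in C57BL/6J and at 66.3, 67.3 and 65.4 CPM in C9-BACexp mice given EGFP-KASH only. The groups did not overlap, again by a narrow gap, since 2 of the C57BL/6J libraries were near the C9-BACexp level and the other 2 well under it. The difference was 0.31 (SE 0.08, adjusted p = 0.0299) with the factors and 0.29 (adjusted p = 0.67) without. It was lost as a call without any of the 3 C9-BACexp libraries (0.31 to 0.33) and without replicates 4 or 5 of the C57BL/6J mice (0.21 and 0.24). With crRNA-13 Phf2 overlapped between the genotypes, with 73.7, 63.2 and 54.8 CPM against 64.4 to 81.4 CPM, and differed by 0.13.

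Kdm7a, a demethylase of H3K9 and H3K27, was the gene called lower. With EGFP-KASH only it was at 48.0, 51.1, 90.5 and 86.2 CPM in C57BL/6J and at 38.8, 65.7 and 54.4 CPM in C9-BACexp mice, and with crRNA-13 at 52.7, 62.0 and 92.8 CPM against 47.8 to 67.6 CPM (median 57.7). The genotypes overlapped, and the C57BL/6J libraries high in Kdm7a were those low in Kmt2d. With the factors it differed by −0.34 (SE 0.09, adjusted p = 0.0498), −0.26 (adjusted p = 0.114) and, over both, −0.30 (SE 0.06, adjusted p = 0.00953), and without them by −0.34 over both (adjusted p = 0.514). The call with EGFP-KASH only was made in 8 of 27 fits that each left out 1 library. It was lost without replicate 2 or 5 of the C9-BACexp mice (−0.15 and −0.36), without replicate 4 or 5 of the C57BL/6J mice (−0.20 and −0.22), and without most libraries of other groups. The call over both treatments was made in 23 of 27, and was lost without replicate 2 of the C9-BACexp mice given EGFP-KASH only (−0.21), replicates 4 and 5 of the C57BL/6J mice given EGFP-KASH only (−0.23 and −0.24) and replicate 5 of those with crRNA-13 (−0.18).

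Between genotypes 1 of the 45 genes, Kdm4a, did not overlap with crRNA-13 (2.22%), where 1.74% of all genes tested did not. With EGFP-KASH only 4 did not overlap, Kdm4a, Phf2, Kmt2e and Kmt5b (8.89%), against 6.13% of all genes. These shares were close to the background. Of the JmjC genes other than Kdm4a, Phf2 and Kdm7a none was called. Over both treatments Kdm2b, an H3K36 demethylase, had 0.26 (adjusted p = 0.123) and Kdm3b, an H3K9 demethylase, 0.14 (adjusted p = 0.124). The LSD enzymes Kdm1a and Kdm1b, which remove methyl groups from H3K4, differed by −0.02 and −0.24 with EGFP-KASH only and by −0.03 and −0.01 with crRNA-13.

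**Figure D3:**
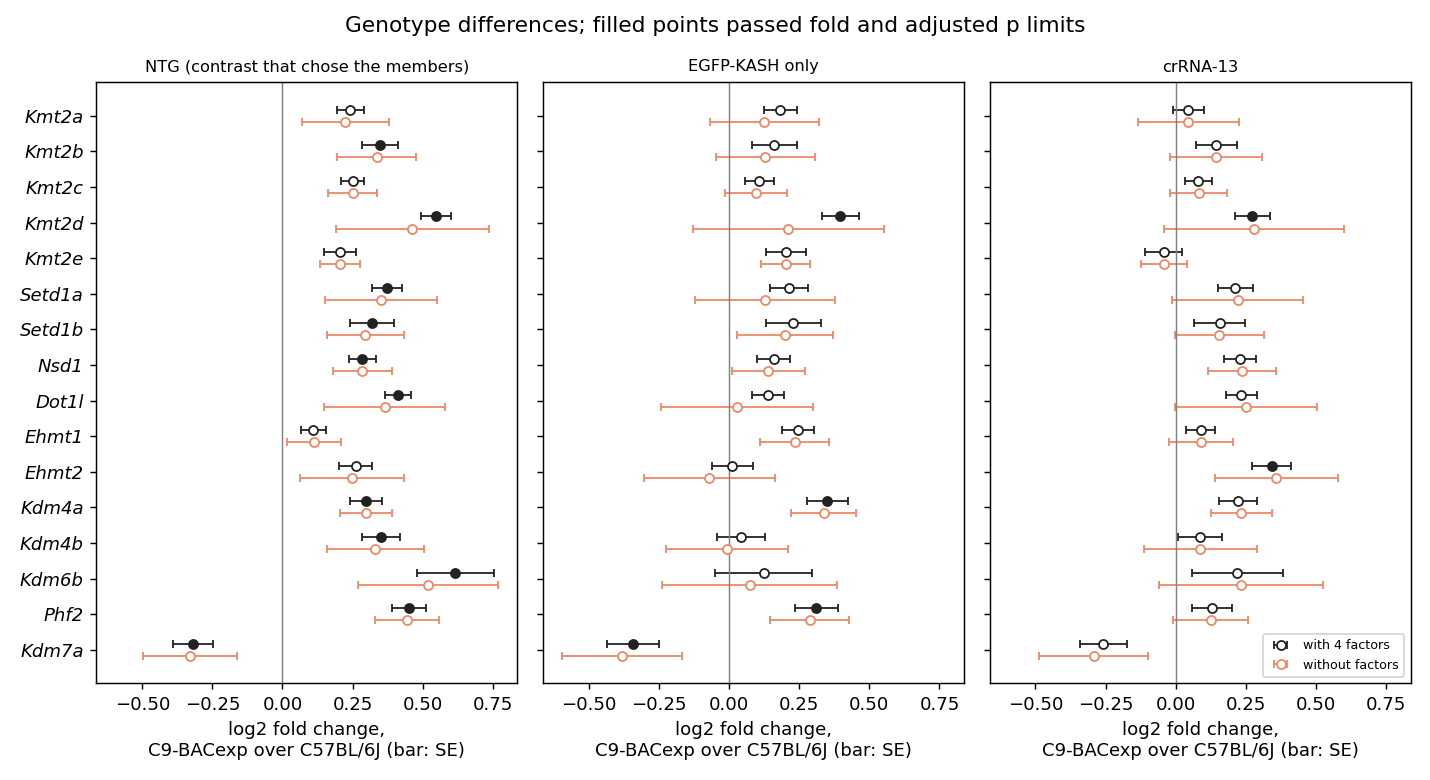
Log2 difference of C9-BACexp less C57BL/6J mice (± SE) for 16 genes with NTG, with EGFP-KASH only and with crRNA-13, in the fits with 4 factors and without, filled where called. Kmt2d has an SE of 0.06 to 0.07 with the factors and of 0.32 to 0.34 without in the 2 panels other than NTG. No symbol of the fit without factors is filled.

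The difference between genotypes was not shown to depend on the treatment. In the test of the 2 genotype differences against each other none of the 45 was called (0.00459% of all genes), and 5 had an unadjusted p under 0.05 (12.3% of all genes). The smallest p values were those of Ehmt2 (0.33 more with crRNA-13, adjusted p = 0.187), Nsd3, an H3K36 methyltransferase (−0.26, adjusted p = 0.231), Kmt2e (−0.25, adjusted p = 0.297) and Kdm4c, a relative of Kdm4a (−0.22, adjusted p = 0.375). The difference for Kmt2d was −0.12.

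RfxCas13d-N2V8 with crRNA-13 was next compared with the reporter alone inside each genotype. In C9-BACexp mice none of the 45 was called, while 0.91% of all genes were, and 8 had an unadjusted p under 0.05 (12.1% of all genes). Dot1l had the smallest p, at 0.18 (adjusted p = 0.0854), followed by Kdm4c at −0.20 (adjusted p = 0.128), Ehmt2 at 0.18 (adjusted p = 0.182) and Kdm4b at 0.20 (adjusted p = 0.212). No gene of the 45 had groups without overlap (1.58% of all genes). Kmt2d differed by 0.02 (95% interval -0.10 to 0.14).

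In C57BL/6J mice none of the 45 was called either (0.404% of all genes), and 6 had an unadjusted p under 0.05 (11.2% of all genes). The smallest p values belonged to Phf2 at 0.25 (adjusted p = 0.19), Nsd3 at 0.19 (adjusted p = 0.238), Kmt2a at 0.16 (adjusted p = 0.295) and Setdb1 at 0.17 (adjusted p = 0.347). Nsd3, at 205, 194, 173 and 198 CPM with the reporter alone and 231, 220 and 208 CPM with crRNA-13, and Setdb1 did not overlap, 2 of 45 (4.44%) against 4.91% of all genes. Kmt2d differed by 0.15. Without replicate 2 of the C57BL/6J mice given EGFP-KASH only this became 0.45, with 4 of the 45 genes called. The share of all genes called in that fit is not given here.

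In the mice given NTG the values that chose these genes are given as a description. Kmt2d was at 295, 248, 508, 298 and 146 CPM in C57BL/6J mice and between 318 and 464 CPM (median 432) in C9-BACexp mice, a log2 difference of 0.55 with the factors. The 2 genotypes overlapped through replicate 3 of the C57BL/6J mice, without which the difference was 0.76, and it was 0.32 without replicate 5. Of the 45 genes 11 were called (24.4%) against 6.59% of all genes, 10 higher and 1 lower against 4.01% and 2.59%. In the fit without factors none was, and the share of all genes called in that fit is not given here. The 6 largest differences were those of Suv39h2 (−0.81), which was read at a few CPM and not called, Kdm6b (0.62), Kmt2d, Phf2 (0.45), Kmt5c, an H4K20 methyltransferase (0.43, not called), and Dot1l (0.41). The gene called lower was Kdm7a (−0.32). Kdm4a was at 60.7, 59.2, 69.0, 66.5 and 60.4 CPM against 74.3 to 83.8 CPM, so that its genotypes did not overlap in any of the 3 treatments. Beside Kdm4a, the genes Kmt2e, Ash1l, Kdm3b and Phf2 did not overlap with NTG, 5 of 45 (11.1%) against 2.76% of all genes.

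The comparisons of crRNA-13 with NTG share the NTG libraries with that contrast and are described likewise. None of the 45 was called in C9-BACexp (0.482% of all genes) or in C57BL/6J mice (0.358%), and the median log2 differences were −0.05 and 0.03. In C9-BACexp mice Kmt2e was at 201 to 229 CPM (median 209) with crRNA-13 and at 240 to 262 CPM (median 244) with NTG, and was the gene of the 45 whose groups did not overlap (0.28% of all genes). Its difference was −0.22. In C57BL/6J mice it was at 215 to 223 CPM with crRNA-13 and at 180 to 233 CPM with NTG, a difference of 0.03, and Kdm5a was the gene whose groups did not overlap (−0.07, 2.78% of all genes). The 6 largest differences in C9-BACexp mice were those of Suv39h2 (0.40), Setdb2 (−0.29), Ezh2 (−0.23), Kmt2e, Kdm4c (−0.20) and Kdm2b (0.19), and in C57BL/6J mice those of Kmt5c (0.43), Setdb2 (0.42), Suv39h2 (−0.39), Phf2 (0.31), Kdm6b (0.28) and Kmt2d (0.20). Kmt2d differed by −0.07 in C9-BACexp mice.

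Inside the groups the levels of many of these genes moved with Kmt2d. The libraries used here include those with NTG, in which Kmt2d was picked for its difference between genotypes. The group means, which hold that difference, were subtracted. Over the 27 libraries, as log2 CPM less the mean of the group, Kmt2a had a Pearson r of 0.986 with Kmt2d (Spearman rho 0.98), Dot1l of 0.94 (0.929), Ehmt2 of 0.939 (0.915) and Setd1a of 0.93 (0.905). For Kmt2a each of the permutation p values was 1e-05, the smallest that 100000 permutations within groups can give, with an adjusted p of 0.00029 for r and 0.00062 for rho over the 21767 other genes tested. For Dot1l, Ehmt2 and Setd1a the permutation p was likewise 1e-05 (adjusted 0.00029) for r and 2e-05 (adjusted 0.00074) for rho. Without the 2 libraries farthest out, replicate 5 of the C57BL/6J mice given NTG and replicate 2 of those with EGFP-KASH only, r was 0.978 for Kmt2a, 0.913 for Dot1l, 0.912 for Ehmt2 and 0.92 for Setd1a. An r above 0.8 was found for 12 of the 44 other genes of the set (27.3%) and for 4.08% of all genes tested, with medians of 0.53 and −0.00.

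A few genes ran the other way. Kdm4c had an r of −0.893 (permutation p = 1e-05, adjusted 0.00029) and a rho of −0.888 (1e-05, adjusted 0.00062). Kdm7a had an r of −0.747 (permutation p = 0.00022, adjusted 0.002) and a rho of −0.786 (0.00017, adjusted 0.0025), and Ezh2 an r of −0.606 (0.00014, adjusted 0.0015) and a rho of −0.625 (0.0017, adjusted 0.011). Without the 2 libraries r was −0.886, −0.724 and −0.522. Kdm4c was at 81.9 and 91.2 CPM in the 2 C57BL/6J libraries with EGFP-KASH only that were high in Kmt2d, and at 127 and 122 CPM in the 2 that were low. Kdm4a, although related to Kdm4c, had an r of 0.427 with Kmt2d (permutation p = 0.11, adjusted 0.23) and a rho of 0.415 (0.091, adjusted 0.2). An r under −0.8 was found for 1 of the 44 (2.27%) and for 3.57% of all genes.

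**Figure D4:**
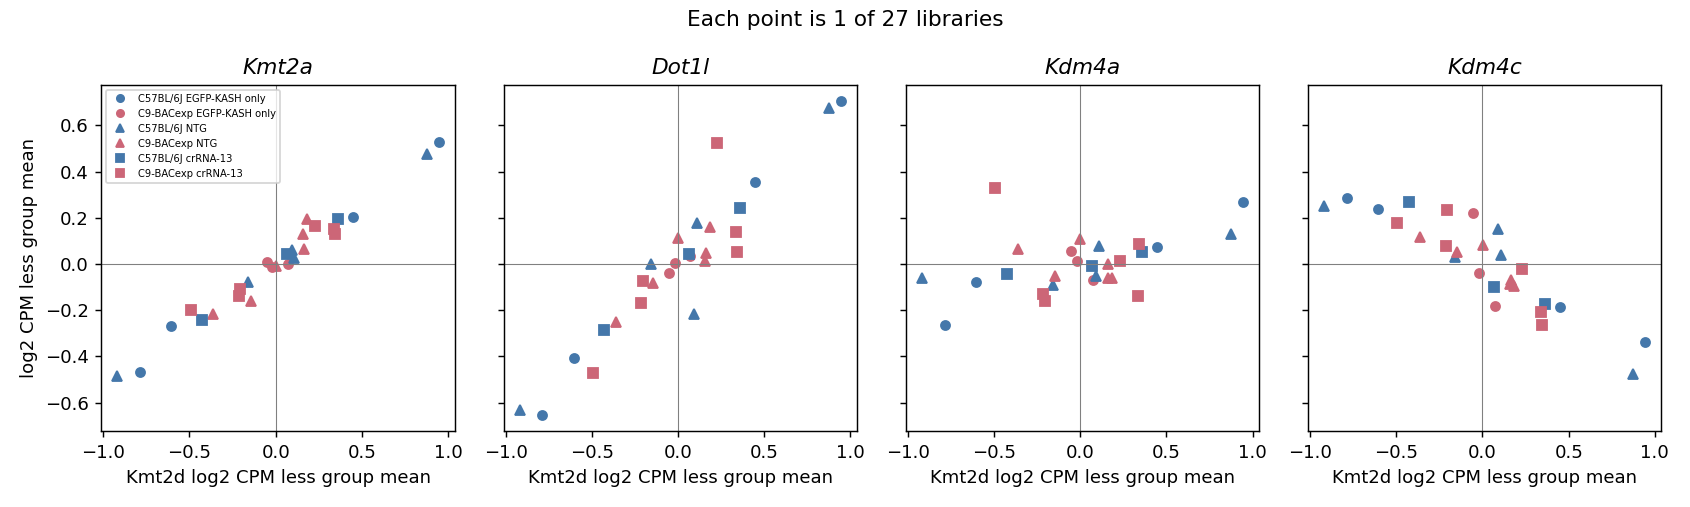
Log2 CPM less the group mean of Kmt2a, Dot1l, Kdm4a and Kdm4c against that of Kmt2d, 1 point for each of the 27 libraries. Kmt2a follows Kmt2d nearly along a line (r 0.986), Kdm4c falls as Kmt2d rises (r −0.893) and Kdm4a is loosely scattered (r 0.427).

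The same axis ran through markers of glia, over the same libraries with those given NTG included. Of 10 relations of Kmt2d computed with the summed levels of marker lists and with the total count, those with glial markers were negative. For oligodendrocytes r was −0.693 (permutation p = 0.0018, adjusted 0.0066) and rho −0.582 (0.013, adjusted 0.044). For astrocytes r was −0.57 (permutation p = 0.002, adjusted 0.0066) and rho −0.618 (0.0027, adjusted 0.027), and for oligodendrocyte precursors r was −0.535 (0.0013, adjusted 0.0066) and rho −0.543 (0.0053, adjusted 0.027). For microglia, whose 7 markers summed to between 4.65 and 21.5 CPM, r was −0.709 (permutation p = 0.0074, adjusted 0.019), while rho, −0.548, did not pass after adjustment (0.028, adjusted 0.07). Without the 2 libraries farthest out r was −0.579, −0.569, −0.535 and −0.608 in this order. Neuronal markers had an r of 0.265 (permutation p = 0.26, adjusted 0.38) and a rho of 0.266 (0.21, adjusted 0.29), and the total count an r of −0.428 (0.078, adjusted 0.16) and a rho of −0.469 (0.046, adjusted 0.093). The part of other cells in the levels of Kmt2d was not tested.

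In the fit with factors some oligodendrocyte markers also differed between the genotypes, while their summed levels overlapped with each treatment. With EGFP-KASH only their summed level was 1281 to 1698 CPM in C9-BACexp and 359 to 1299 CPM in C57BL/6J mice, with crRNA-13 557 to 3882 against 751 to 1374 CPM, and with NTG 1002 to 2213 against 324 to 1717 CPM. Of the 9 markers, 3 were called higher in C9-BACexp mice given EGFP-KASH only, 1 with crRNA-13 and 8 with NTG, the contrast in which Kmt2d was picked. Of all genes tested, 2.86%, 1.08% and 6.59% were called in these comparisons, and 3.22% over EGFP-KASH only and crRNA-13 together. Within groups the marker sum was lower where Kmt2d was higher, whereas in the fit with factors both Kmt2d and the called markers were higher in C9-BACexp mice. Of 7 astrocyte markers 2 were called lower with crRNA-13, none with EGFP-KASH only and 4 over both, with median log2 differences of −0.44, −0.26 and −0.37. The 9 markers of striatal projection neurons, cells that lie outside the cortex, had a median log2 difference of 1.2 with crRNA-13, with 9 above 0 and none called, 0.46 with EGFP-KASH only, with none called, and 0.93 over both, with 1 called higher. Their summed level was 1450 to 3268 CPM in C9-BACexp and 1091 to 1489 CPM in C57BL/6J mice given crRNA-13. The 7 upper-layer markers had medians of −0.04, −0.30 and −0.17, with 1 called lower over both. With NTG 3 markers of striatal projection neurons and 3 of deep-layer neurons were called higher, and 3 upper-layer and 3 astrocyte markers lower. The fit without factors called none of the markers of these lists in any of these comparisons, and its share over all genes is not given here. The part of these cells in the differences of the 45 genes was not tested.

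The differences between genotypes followed the base composition of the genes. Among the 45, the Spearman correlation of the log2 difference with the GC content of the exons was 0.73 with crRNA-13, 0.34 with EGFP-KASH only and 0.62 with NTG. Over the 10820 genes with at least 5 CPM it was 0.38, 0.18 and 0.42. These are descriptions across genes, which share their libraries and are not independent. The called genes that were higher are rich in GC, 60.5% for Ehmt2, 58.3% for Kmt2d, 57.4% for Phf2 and 53.5% for Kdm4a, and Kdm7a, which was lower, has 40.5%. With crRNA-13 the median difference of the 11 genes of the set over 55% GC was 0.16, against 0.12 for all genes over 55%, and that of the 15 genes under 45% was −0.01, against −0.08. With EGFP-KASH only the medians were 0.16 against 0.08 and 0.07 against −0.06. After a correction of each library for GC content, chosen after the data were seen, none of the 45 was called with crRNA-13 or over both treatments, and 4 with EGFP-KASH only (Kmt2d, Kmt2e, Ehmt1 and Kdm4a). The share of all genes called after this correction is not given here. Kmt2d then differed by 0.15 with crRNA-13 (adjusted p = 0.17), 0.32 with EGFP-KASH only and 0.24 over both (adjusted p = 0.00322). Some of these genes were under the limit on adjusted p and missed the fold limit: with crRNA-13 this was Nsd1 (0.26, adjusted p = 0.0153), and over both treatments Kmt2d, Nsd1 (0.22, adjusted p = 0.00513) and Kdm4a (0.24, adjusted p = 0.0157) were among them. With crRNA-13 Ehmt2 differed by 0.20 (adjusted p = 0.172), Kdm4a by 0.15 (adjusted p = 0.297) and Kdm7a by −0.15 (adjusted p = 0.396), and over both Kdm7a by −0.20 (adjusted p = 0.0627).

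**Figure D5:**
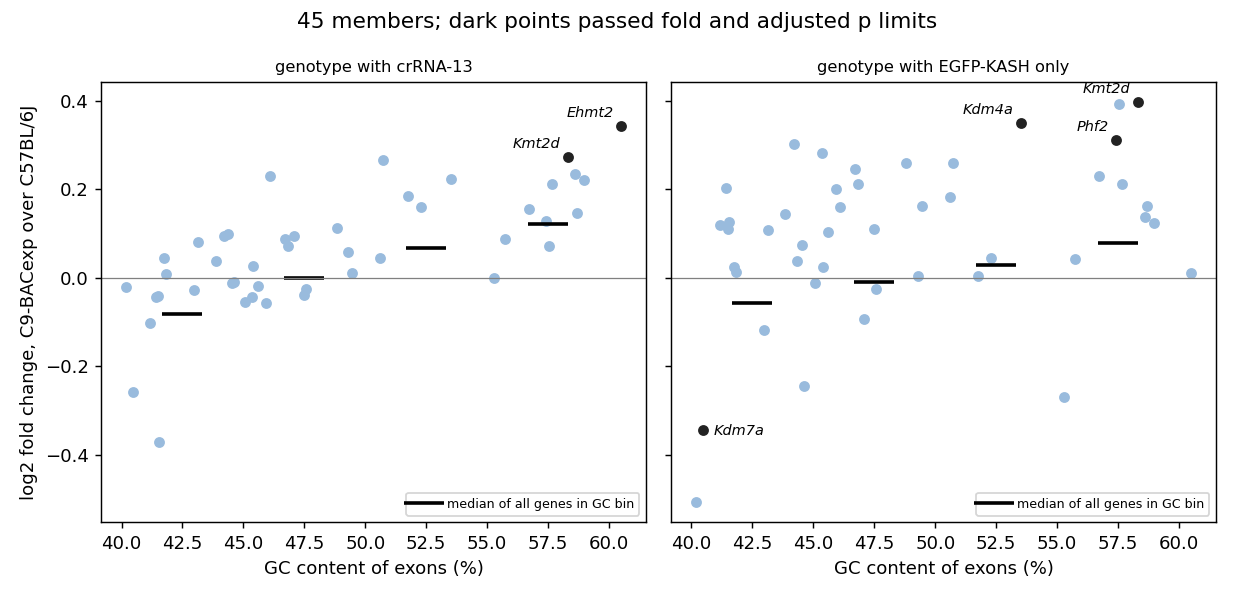
Log2 difference between genotypes of each of the 45 genes against the GC content of its exons, with crRNA-13 and with EGFP-KASH only, and the median of all genes in 4 bins of GC content (bars). Differences climb with GC content in both panels, more steeply with crRNA-13, for the 45 genes and for all genes.

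The partners of these enzymes were described from lists fixed with earlier results of these data known. Of 28 other lysine methyltransferases and demethylases tested and of 15 subunits of COMPASS and MLL complexes, the scaffolds of the H3K4 methyltransferases, none was called with crRNA-13, with EGFP-KASH only or over both, with medians between −0.05 and 0.05. The same held for 11 genes of the LSD1 and CoREST complex, 13 partners and readers of H3K9 methylation and 19 histone acetyltransferases and deacetylases, with medians from 0.00 to 0.11. Of 11 PRC2 subunits, Mtf2, which recruits PRC2 to CpG islands, was lower with crRNA-13 (log2 difference −0.29, adjusted p = 0.0266; 0.64 without factors), and Epop, another accessory subunit, read at a few CPM, was lower with EGFP-KASH only (−0.83, adjusted p = 0.0474; 0.532 without factors). Over both treatments Epop (−0.55) and Rbbp4 (−0.27) were called lower, and the median of the PRC2 list was −0.09. The fit without factors called none of these genes, again without a share over all genes given here.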

How the data were processed

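The authors deposited expected counts (estimated counts per gene, not normalized between libraries), made from the reads with Salmon 1.10.0 and tximport in R 4.3.1 according to the submitters' processing notes and the study's methods. They included unspliced transcripts and used limma-trend with 4 RUVSeq factors, whose kind is not given in the sources used here. The counts were rounded to whole numbers, filtered (21768 of 39338 rows kept) and scaled by TMM, and the 6 groups of the labels were fitted with edgeR 4.0.16 in R 4.3.3. The 4 factors came from residuals within groups. In tests on simulated data, fits with such factors called some unchanged genes. Calls among the 45 genes and in the marker lists are therefore given with the number called without factors. The shared variation in the simulated data was drawn at random and was not that of these libraries. Benjamini-Hochberg adjustment covered all genes tested, jointly over the study's 5 pairwise comparisons where a comparison is one of them. CPM are TMM-scaled. With 21508829 to 36777972 counts per library, the lowest count of any of the 45 genes was 13.

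The 45 genes and all lists were chosen with earlier results of these data known. Named were Kmt2a to Kmt2e, up to 10 called genes per comparison or the 4 with the smallest p, the 6 largest differences where described only, and the 4 highest and 4 lowest levels. Other genes, such as Kdm4c, Setd1a, Dot1l, Nsd1, Ehmt1 and Kmt5b where they were not called, were named after their values were seen. Alternatives were limma-trend (limma 3.58.1), DESeq2 1.42.0 with and without factors, 2 or no factors, other scaling, no filter, a replicate block and leaving out each library. Gene positions and GC content are from GENCODE vM39 (GRCm39), promoters from RefSeq (GRCm38.p6).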

Additional observations from a re-analysis of the deposited data

Results flagged for a closer look

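Of 180 sets made by 1 of the 45 genes in 1 of the 4 groups with 4 to 6 libraries, 14 held a library that stood apart from the rest of its group by Dixon's test, where chance gives about 1 in 20 such sets. The sets share libraries, and many of the genes vary together, so the sets are not independent and the chance share is only a rough guide. The groups of 3 libraries were not tested.

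In the C9-BACexp mice given crRNA-13, replicate 1 was lowest for Setdb1 (75.5 CPM) and Smyd3 (426 CPM) and highest for Ezh1 (58.1 CPM). Replicate 2 was highest for Ash1l (267 CPM), Kdm2b (121 CPM) and Jmjd1c (381 CPM). Replicate 3 was highest for Phf2 (81.4 CPM), and replicate 6 was lowest for Kmt5b (56.3 CPM). Replicate 6 of the C9-BACexp mice given NTG was highest for Kdm3a (79.7 CPM).

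In C57BL/6J mice, replicate 3 with NTG was highest for Ehmt1 (186 CPM) and Kdm4b (180 CPM), and replicate 1 with NTG was highest for Kdm5a (86.5 CPM). Replicate 2 with EGFP-KASH only was lowest for Nsd2 (89.2 CPM) and highest for Kdm1a (69.0 CPM). Replicate 1 of the C9-BACexp mice given crRNA-13, replicate 3 with NTG and replicate 2 with EGFP-KASH only of the C57BL/6J mice are among the 4 libraries farthest out on the first factor.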

How the results depend on the processing

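The number of the 45 genes called depended on the factors. Without factors, with DESeq2 without factors and with a GC correction without factors, none was called with crRNA-13 (2 with the factors), with EGFP-KASH only (4) or over both (3). With NTG the counts were 0, 1 and 0, against 11. With 2 factors they were 0, 0 and 6 for crRNA-13, EGFP-KASH only and NTG and 2 over both (Kmt2d and Kdm4a). With the GC correction and 4 factors they were 0, 4 and 8 in the same order and 0 over both. Adjustment inside the comparison left 1 with crRNA-13, no filter left 2 with EGFP-KASH only, and DESeq2 with the factors called 1 in C57BL/6J mice for crRNA-13 against NTG. Without the 4 libraries farthest out on the first factor, an alternative chosen after the data were seen, 4 were called with crRNA-13, 11 with EGFP-KASH only and 9 over both, and for crRNA-13 against EGFP-KASH only 1 in C9-BACexp and 6 in C57BL/6J mice. Shares over all genes tested are not given here for these other settings or for the fits that left out 1 library. Their counts therefore cannot be read as above or below a background. Limma-trend, DESeq2 with the factors and size factors in place of TMM kept the 4 genotype counts within 1.5 times. Of 294 values of single named genes under such settings, 187 kept direction and call status, 99 kept the direction without the call, 1 gained the call and 7 turned. The 294 include Kmt2d where it was not called, with no call to lose, and the genes called with NTG. The call of Kmt2d was kept in 5 of 12 other settings with crRNA-13, in 8 of 12 with EGFP-KASH only and in 6 of 11 over both. Apart from the number of libraries or factors, the cause of these changes was not tested.

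When each library was left out in turn, the counts ranged from 0 (without replicate 5 of the C57BL/6J mice given crRNA-13) to 6 (without their replicate 1) with crRNA-13, from 0 (without replicate 4 of the C57BL/6J mice given EGFP-KASH only) to 9 (without their replicate 2) with EGFP-KASH only, from 0 to 7 over both for the same libraries, and from 6 to 17 with NTG (without replicates 5 and 3 of the C57BL/6J mice). They ranged from 0 to 1 for the difference of the 2 genotype differences and in C9-BACexp mice for crRNA-13 against EGFP-KASH only, and from 0 to 4 in C57BL/6J mice for crRNA-13 against EGFP-KASH only or NTG. The difference in log2 CPM of Kmt2d in the permutation tests ranged from 0.07 to 0.46 with crRNA-13, 0.13 to 0.70 with EGFP-KASH only and 0.20 to 0.49 over both.

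The direction of the difference in Kmt2d turned in comparisons where it was not called. The difference of the 2 genotype differences (−0.12) was 0.0679 without factors and 0.0705 with DESeq2 without factors, and ranged from −0.43 to 0.13 when libraries were left out. For crRNA-13 against EGFP-KASH only it was −0.0388 and −0.0173 in C9-BACexp mice with the GC correction, with and without factors (range −0.0507 to 0.12), and −0.0024 and −0.0031 in C57BL/6J mice without factors in edgeR and DESeq2 (range −0.11 to 0.45). Against NTG it was 0.0315 in C9-BACexp mice without the 4 libraries (range −0.14 to 0.0299), and ranged from −0.019 to 0.43 in C57BL/6J mice.

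Replicate numbers recur between groups. Over 48 pairs of libraries with the same number the correlation of their deviations ranged from −0.16 to 0.29, over 0.1 in 10. The median was −0.003, against 0.0001 for pairs with different numbers. The highest value, 0.29, was that of replicate 1 of the C9-BACexp mice given NTG and given crRNA-13. The share of pairs with different numbers over 0.1 is not given here, and whether equal numbers mark paired mice was not tested. With a replicate block the counts were 0 with crRNA-13, 1 with EGFP-KASH only, 2 over both and 10 with NTG.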
